A study of Danio rerio with 8 samples.

Results

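The macrophage and granulin genes described here are 10 genes looked up by symbol in the annotation of a zebrafish liver array: the granulins *grn1*, *grn2*, *grna* and *grnb*, the macrophage genes *mfap4*, *mpeg1.1*, *marco* and *csf1ra*, and the transcription factors *spi1a* and *spi1b*. Of these 10, 9 were found, of 22653 symbols that have a probe cluster of their own, and each of the 9 had 1 cluster. *csf1ra*, the receptor through which macrophages receive their survival signal, has no value here because its cluster also carries the symbol si:zfos-1069f5.1. A cluster is the set of probes that the array design summarises into 1 value, and the value is a log2 signal, on which a difference of 1 is a factor of 2. Brightness depends on the probes, so a gene was compared with itself across arrays and never with another gene.

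Granulins are cysteine-rich peptides cut by proteases from progranulin, a secreted protein that macrophages and epithelia make and that also reaches the lysosome. Zebrafish carry the long-form genes *grna* and *grnb* and the short-form genes *grn1* and *grn2*, which encode fewer granulin repeats. In the liver the resident macrophages, known as Kupffer cells, line the sinusoids, take up particles from the blood and depend on the transcription factor PU.1, which *spi1a* and *spi1b* encode.

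Livers came from adult wild-type zebrafish of the AB strain, and the sex of the fish was not named. In each of 2 batches, 2 arrays held liver RNA of control fish, which were left untreated (mock), and 2 held liver RNA of fish given oligo-fucoidan (OF), an extract of brown seaweed, by oral gavage. Each dose was 300 mg/kg, given 3 times weekly over 1 month. The fish were 5 months old at the start by the treatment notes and 6 months old by the sample labels. Each comparison therefore rests on 4 OF arrays against 4 control arrays, or on 2 against 2 within a batch, and the question was whether OF changes liver gene expression.

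Signals stood lower in batch 1 (array medians 2.11 to 2.13) than in batch 2 (2.54 to 2.63). In the main fits OF was therefore compared with control within a batch or with a batch term. Where list means of both batches stand side by side, they only describe the arrays. Of 16 hepatocyte genes, which check the tissue label, 15 had a mean log2 signal of at least 5. The arrays also differed strongly in estrogen-responsive and ovary genes. The mean log2 signal of 6 estrogen-responsive genes was 3.39 and 3.30 on the batch 1 control arrays and 8.85 and 10.77 on the batch 1 OF arrays. In batch 2 it was 11.58 on both control arrays, 11.51 on OF replicate 1 and 3.45 on OF replicate 2. Ovary genes were also higher on both OF arrays of batch 1 (7.61 and 5.76) than on its controls (1.84 and 1.94). In batch 1, OF and this difference cannot be told apart. In batch 2, OF replicate 2 stands alone, and values are given below with and without it.

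The short-form granulins *grn1* and *grn2* were higher with OF in batch 2, and no other member was called there. *mfap4* was called higher in batch 1 and over both batches, *grn2* was called higher over both batches, and *spi1a* was called lower in batch 1. The macrophage genes *mpeg1.1* and *marco* passed no threshold in any comparison. A gene was called when its fold change was over 2 and its unadjusted p under 0.05 in limma, which are the thresholds of the methods. Over both batches these thresholds called 2 of the 9 members higher and 0 lower, against 0.54% and 0.474% of all 59300 clusters. In batch 1 they called 1 higher and 1 lower, against 3.26% and 3.47%. In batch 2 they called 2 higher and 0 lower, against 2.55% and 3.12%. The members were chosen with earlier results of these data known, so the shares are given for scale only. The change differed between the batches past the same thresholds for 0 members higher and 1 lower in batch 2 (*mfap4*), against 6.42% and 5.88% of all clusters. At a limma adjusted p under 0.05, 0 members were called in any of these comparisons, beside 0% of all clusters over both batches and in batch 1, 0.0101% in batch 2 and 0.00506% for the difference between the batches. An unadjusted p under 0.05 was reached by 2 members in each of the 4 comparisons. Of all 59300 clusters it was reached by 2662 over both batches, 6296 in batch 1, 5773 in batch 2 and 8479 for the difference. In whole liver a change in the number of macrophages and a change in RNA per macrophage cannot be told apart.

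**Figure D1:**
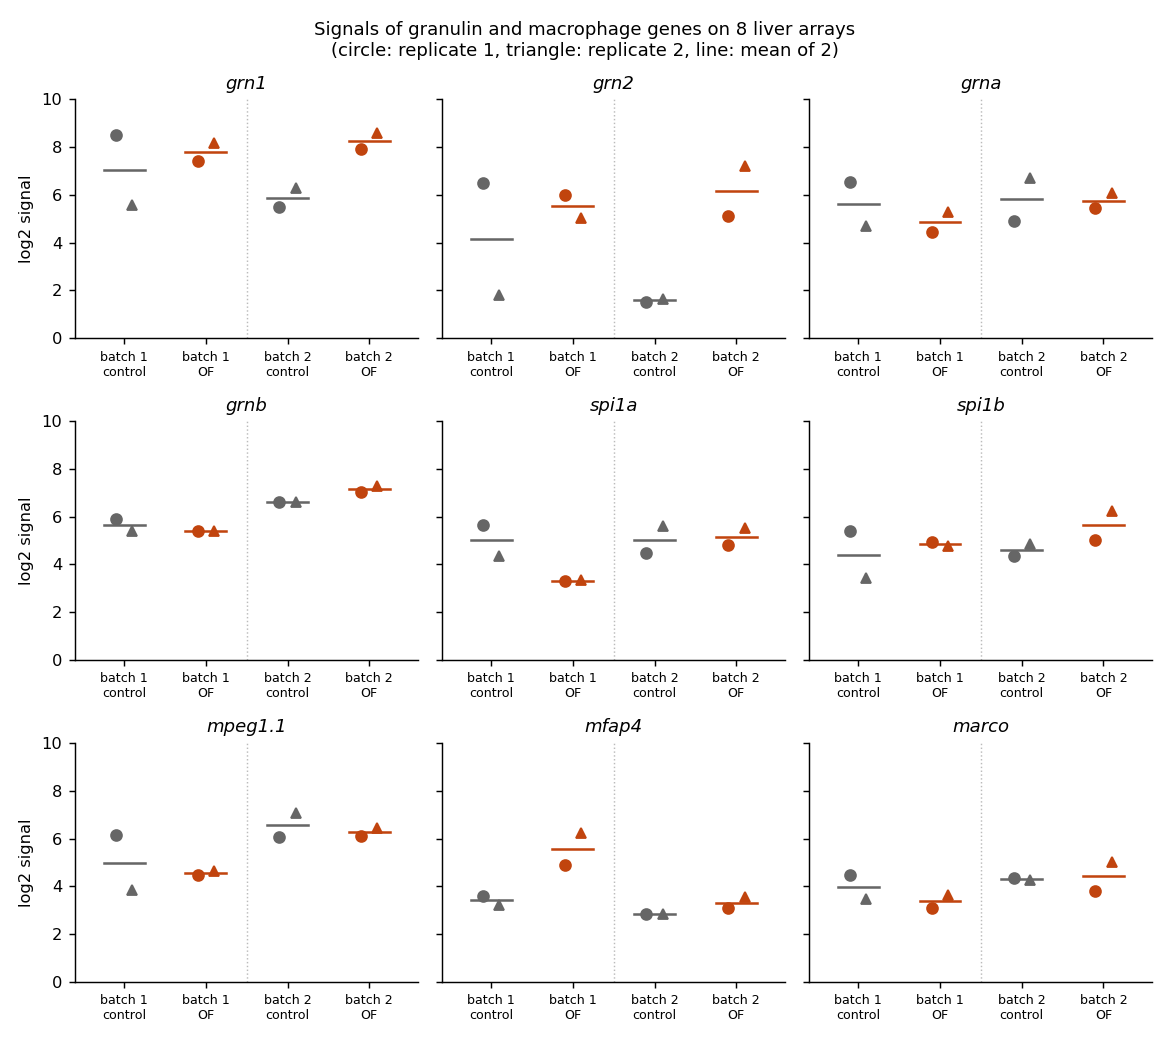
Log2 signal (vertical axis) of the 9 genes on each of the 8 arrays, by batch and treatment (grey for control, orange for OF), with circles for replicate 1, triangles for replicate 2 and lines for the mean of the 2 arrays. In batch 2 the OF arrays of *grn1* and *grn2* lie above both control arrays, while in batch 1 control replicate 1 lies far above control replicate 2 for both genes.

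*grn1* lies on chromosome 19 (41147836 to 41152591, minus strand, coordinates as in the files, their build not given in the sources used here), is read by 13 probes and is now named *grna.1* in RefSeq. Its log2 signal in batch 2 was 5.49 and 6.27 on the control arrays and 7.93 and 8.60 on the OF arrays, and in batch 1 it was 8.50 and 5.57 on the control arrays and 7.43 and 8.18 on the OF arrays. In batch 2 the groups did not overlap, whereas in batch 1 the control arrays were the lowest and the highest of the 4. The change with OF in batch 2 was 2.39 (standard error 0.39, a 5.23-fold rise, limma unadjusted p = 0.00271, adjusted p = 0.232). Leaving out each array of batch 2 in turn gave 2.00 to 2.77, and without OF replicate 2 it was 2.05, so the call was kept each time. In batch 1 the change was 0.77 with an interval (95%) from −2.25 to 3.80. It became 2.24 without control replicate 1, which passed the thresholds, and −0.69 without control replicate 2. Over both batches it was 1.58 (standard error 0.68, limma unadjusted p = 0.0541, adjusted p = 0.955), just short of the threshold. Leaving out single arrays gave from 1.16 (without batch 1 control replicate 2) to 2.33 (without batch 1 control replicate 1), and it passed the thresholds without batch 1 control replicate 1 or batch 1 OF replicate 1 (1.89) and not without any other.

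*grn2* is the neighbour of *grn1* on the same strand (chromosome 19, 41156804 to 41159423, 12 probes), 4212 bases away, and is now named *grna.2*. In batch 2 its log2 signal was 1.51 and 1.64 on the control arrays and 5.13 and 7.21 on the OF arrays, and in batch 1 it was 6.49 and 1.82 on the control arrays and 6.00 and 5.04 on the OF arrays. In batch 2 the groups did not overlap, whereas in batch 1 the control arrays were the highest and the lowest of the 4. The batch 2 control values lie below the medians of their arrays (2.56 and 2.54), at the dim end of the scale. A change measured against them may be understated, and its size is uncertain. The change in batch 2 was 4.59 (standard error 0.72, interval 2.66 to 6.53, limma unadjusted p = 0.00223, adjusted p = 0.227). Leaving out single arrays gave 3.55 to 5.63, the lowest without OF replicate 2. In batch 1 the change was 1.37 (interval −3.37 to 6.11), 3.70 without control replicate 1 and −0.96 without control replicate 2. Over both batches it was 2.98 (standard error 1.16, interval 0.23 to 5.73, limma unadjusted p = 0.0372, adjusted p = 0.955). That call was kept when batch 1 control replicate 1 (4.24) or batch 1 OF replicate 2 (3.50) was left out. It was lost without each of the other 6 arrays, where the change was 2.37 (batch 1 control replicate 2), 3.11 (batch 1 OF replicate 1), 2.63 and 2.68 (batch 2 control replicates 1 and 2), and 3.07 and 2.24 (batch 2 OF replicates 1 and 2). The changes of *grn1* and *grn2* were not shown to differ between the batches (batch 2 minus batch 1, 1.61 and 3.22, limma adjusted p = 0.657 and 0.568). They turned on 1 control array of batch 1: without control replicate 2 the differences were 3.08 and 5.55 and passed the thresholds, and without control replicate 1 they were 0.15 and 0.89 and did not.

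Both genes are spanned on the opposite strand by *grnas*, a granulin antisense gene (chromosome 19, 41146727 to 41165814, plus strand). Its log2 signal in batch 2 was 2.44 and 2.60 on the control arrays and 2.87 and 4.76 on the OF arrays, and it did not pass the thresholds there, although both OF arrays were higher. In batch 1 it was 5.34 and 4.17 on the control arrays and 4.46 and 4.61 on the OF arrays, a change of −0.22. *grnas* was looked up after the values of its neighbours were seen. Because *grn1* and *grn2* are close relatives, probes may read both, and the 2 clusters should not be taken as independent measurements.

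The long-form granulin *grna* (chromosome 3, 13 probes), which in zebrafish embryos has been tied to growth of the liver, gave overlapping groups in both batches. Its log2 signal was 6.54 and 4.70 on the control arrays and 4.43 and 5.30 on the OF arrays of batch 1, and 4.92 and 6.72 against 5.43 and 6.08 in batch 2. Over both batches the change was −0.41 (interval −1.71 to 0.90). *grnb* (chromosome 24, 32 probes) is the other long-form gene. It had a log2 signal of 5.90 and 5.41 on the control arrays and 5.42 and 5.39 on the OF arrays of batch 1, and of 6.63 and 6.61 against 7.03 and 7.27 in batch 2. Both OF arrays of batch 2 were higher, by 0.53 on average (standard error 0.21, limma unadjusted p = 0.0562, adjusted p = 0.532), which is under a factor of 2, and by 0.41 without OF replicate 2. Over both batches its change was 0.14 (interval −0.35 to 0.63), and it was 0.01 without batch 2 OF replicate 2.

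**Figure D2:**
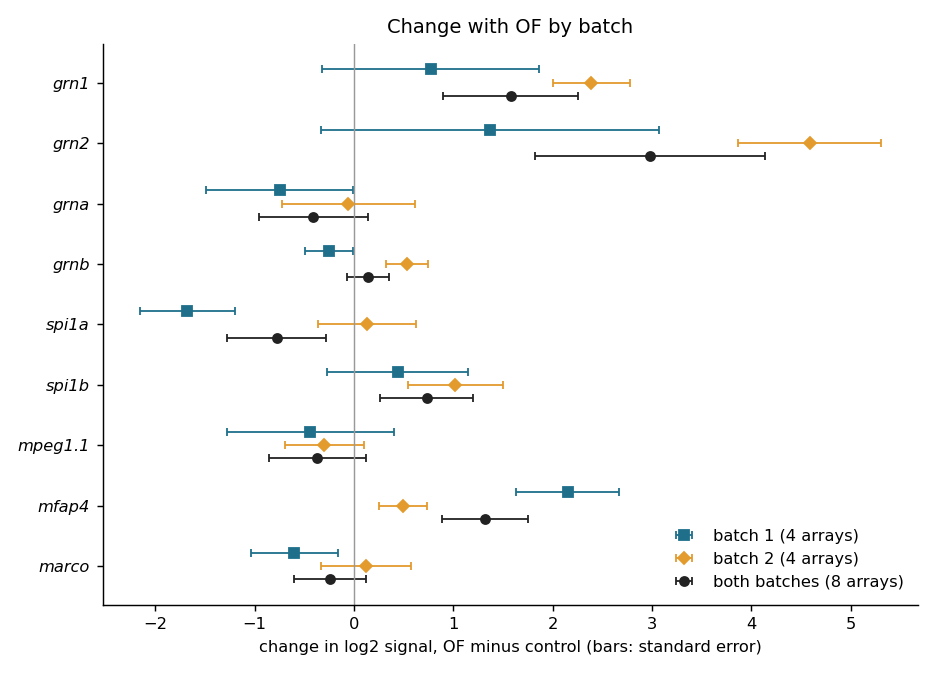
Change in log2 signal with OF (OF minus control, horizontal axis) of each of the 9 genes in batch 1, in batch 2 and over both batches, with bars for the limma standard error. *grn1* and *grn2* lie farthest to the right in batch 2 (2.39 and 4.59), *mfap4* in batch 1 (2.15), and *spi1a* farthest to the left in batch 1 (−1.68).

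*mfap4* encodes a secreted, fibrinogen-related protein and is used as a macrophage marker in zebrafish. Its cluster (chromosome 1, 59845936 to 59846988, plus strand, 11 probes, now *mfap4.1*) gave 3.60 and 3.22 on the control arrays and 4.89 and 6.24 on the OF arrays of batch 1, and 2.83 and 2.82 against 3.10 and 3.54 in batch 2. It was the only member with both OF arrays above both control arrays in each batch, a pattern shared by 2.54% of all clusters. The signal was low, with 1 of 8 arrays over 5. In batch 1 the change was 2.15 (standard error 0.52, a 4.45-fold rise, limma unadjusted p = 0.015, adjusted p = 0.323), and that call was lost without control replicate 1 (2.34) or control replicate 2 (1.97). In batch 2 it was 0.49 (interval −0.15 to 1.14) and passed no threshold, and it was 0.28 without OF replicate 2. Over both batches it was 1.32 (standard error 0.43, limma unadjusted p = 0.0179, adjusted p = 0.955). This call was lost without batch 1 control replicate 2 (1.08) or batch 1 OF replicate 2 (0.89). By an exact permutation test of treatment within batches (36 relabelings, two-sided) *mfap4* reached p = 0.0556, the smallest value the design allows, while *grn1* and *grn2* gave 0.167 and the other 6 members 0.278 to 0.667.

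The rise of *mfap4* in batch 1 came with other differences between the same arrays. The mean log2 signal of 6 neutrophil genes was at most 3.24 on the control arrays and 4.57 and 4.33 on the OF arrays of batch 1, and from 3.14 to 3.48 on the arrays of batch 2. Of the defining neutrophil markers, *mpx* (myeloperoxidase) was measured at 3.04 and 4.65 on the batch 1 control arrays and 2.92 and 5.71 on the OF arrays, and *lyz* (lysozyme) at 2.52 and 2.29 against 6.28 and 2.65. Of the 6 neutrophil genes 1, *lect2l*, was called higher in batch 1 and over both batches, against 3.26% and 0.54% of all clusters. Estrogen-responsive and ovary genes were higher on the same arrays, as given above. Their part in the change of *mfap4* was not tested within batch 1. Over both batches, with the level of the estrogen-responsive list as a covariate, an alternative added after the data were seen, *mfap4* changed by 1.22 and *grn2* by 3.32, and both were called. *grn1* changed by 1.72 in that fit and passed the thresholds. In batch 1 the list differed between all OF and control arrays, and in batch 2 only OF replicate 2 stood apart. Within batch 1, OF and the level of the list therefore cannot be told apart. The fit over both batches separates them through batch 2, where the list was not higher on the OF arrays. It treats the list alike in both batches, and its changes are given as a description.

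RefSeq lists 13 *mfap4* genes, and 8 clusters of the family, *mfap4* among them, were matched to them. Only *mfap4* was called among these 8 in any comparison of OF with control. The next copy, now *mfap4.2* (zgc:173915 in the files), gave 5.48 and 2.85 on the control arrays and 4.10 and 6.01 on the OF arrays of batch 1, and 6.18 and 6.15 against 5.52 and 7.90 in batch 2. Its groups overlapped in both batches (changes 0.89 and 0.54). The other 6 copies stayed between 1.07 and 2.91 on every array. These relatives were looked up after the value of *mfap4* was seen, and where copies are near-identical a value may hold signal of more than 1 of them.

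*mpeg1.1* encodes perforin-2, a pore-forming protein that macrophages use against engulfed bacteria, and its promoter drives the usual macrophage reporter of zebrafish. The cluster (chromosome 8, 17 probes) gave 6.15 and 3.84 on the control arrays and 4.47 and 4.65 on the OF arrays of batch 1, and 6.08 and 7.08 against 6.12 and 6.43 in batch 2. In both batches the OF arrays lay between the control arrays. The change over both batches was −0.37 (standard error 0.49, interval −1.53 to 0.79, limma adjusted p = 0.964). Without batch 1 control replicate 2, the change in batch 1 was −1.59 and passed the thresholds, and without control replicate 1 it was 0.72.

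*marco*, a scavenger receptor that binds bacteria and in mammals marks Kupffer cells, was read by 13 probes on chromosome 9. It gave 4.48 and 3.47 on the control arrays and 3.10 and 3.64 on the OF arrays of batch 1, and 4.33 and 4.27 against 3.81 and 5.03 in batch 2. The groups overlapped in both batches, and the change over both was −0.24 (interval −1.09 to 0.61).

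The transcription factor genes *spi1a* and *spi1b* are the zebrafish copies of the gene for PU.1, which commits blood progenitors to the myeloid fate. *spi1a* (chromosome 25, 26 probes) gave 5.65 and 4.37 on the control arrays and 3.29 and 3.36 on the OF arrays of batch 1, so that both OF arrays were lower. In batch 2 it gave 4.46 and 5.63 against 4.83 and 5.51, and the groups overlapped. The change in batch 1 was −1.68 (standard error 0.48, 3.21-fold lower, limma unadjusted p = 0.0258, adjusted p = 0.385), and that call was lost without OF replicate 1 (−1.65) or OF replicate 2 (−1.72). It was kept without control replicate 1 (−1.04) and without control replicate 2 (−2.33). In batch 2 the change was 0.13 (interval −1.19 to 1.44), and the difference between the batches, 1.81, did not pass the thresholds (limma unadjusted p = 0.056, adjusted p = 0.367). On the arrays of batch 1 the mean of 9 erythrocyte genes moved the same way, with 4.53 and 4.02 on the control arrays and 3.01 and 2.62 on the OF arrays, and its part in the fall of *spi1a* was not tested.

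*spi1b* (chromosome 7, 27 probes) gave 5.39 and 3.44 on the control arrays and 4.95 and 4.77 on the OF arrays of batch 1, and 4.36 and 4.87 against 5.03 and 6.25 in batch 2. Both OF arrays of batch 2 were higher than the controls, with a change of 1.02 (standard error 0.48, limma unadjusted p = 0.0943, adjusted p = 0.622) that did not pass the thresholds. It was 0.42 without OF replicate 2, and 1.63 without OF replicate 1, which passed. Over both batches the change was 0.73 (interval −0.38 to 1.85). It was 1.18 without batch 1 control replicate 1, which passed, 0.40 when control replicate 2 of batch 1 was left out and 0.43 when OF replicate 2 of batch 2 was.

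In batch 2, 5 of the 9 members (*grn1*, *grn2*, *grnb*, *mfap4* and *spi1b*) had both OF arrays above both control arrays, as did 21% of all clusters, and 0 had both below, as did 17.8%. In batch 1 the counts were 1 above (*mfap4*) and 1 below (*spi1a*), against 18.5% and 23.9%. Single arrays stood apart across the members. Batch 1 control replicate 1 was above control replicate 2 for 9 of 9 members, which was so for 48.3% of all clusters and for 54.7% of those with a mean log2 signal of at least 5. Batch 2 OF replicate 2 was above OF replicate 1 for 9 of 9 members, against 47% of all clusters and 62.1% of the brighter ones. With batch 2 OF replicate 2 and then without it, the batch 2 change was −0.06 and −0.39 for *grna*, −0.30 and −0.46 for *mpeg1.1*, 0.12 and −0.49 for *marco*, and 0.13 and −0.22 for *spi1a*, none of them called. Within each batch the mean of the 16 hepatocyte genes was also highest on these arrays, at 11.02 and 12.16. In batch 2 much of its gap to OF replicate 1 (10.86) lay in *serpina1* (11.78 against 5.35) and *serpina1l* (10.64 against 3.03). Its part in the members' levels was not tested. The differences between the control arrays of batch 1 reached 2.93 for *grn1*, 4.67 for *grn2* and 2.31 for *mpeg1.1*, larger than the change with OF of the same gene in that batch. For *grn1* and *grn2* these differences were also larger than the change with OF in batch 2 (2.39 and 4.59).

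**Figure D3:**
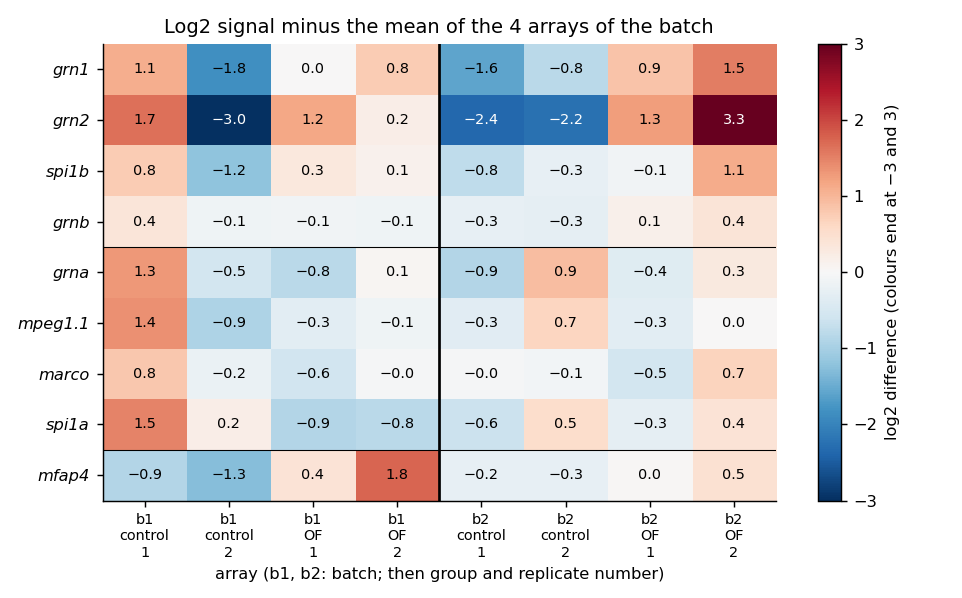
Log2 signal of each of the 9 genes on each array minus the mean of the 4 arrays of its batch, with red for higher and blue for lower. Batch 1 control replicate 1 and batch 2 OF replicate 2 are high for most genes, and *mfap4* follows another order of arrays in batch 1.

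After the mean of each batch was subtracted, members that varied together over the 8 arrays were put into sets. The sets were chosen from these same correlations after the data were examined, and they only describe these arrays. Among *grn1*, *grn2*, *grnb* and *spi1b* the correlations were 0.74 to 0.94, and among *grna*, *mpeg1.1*, *marco* and *spi1a* they were 0.64 to 0.90. Between the sets they were 0.16 to 0.64, so the ranges met and the sets were not clearly separate. *mfap4* had correlations of −0.60 to 0.49 with the other 8 genes. All points share the same 8 arrays, and the OF change is part of each correlation. Of 6786 genes with a mean log2 signal of at least 5, those that varied most like *grn1* were *brd1b* (r = 0.991), *cyp46a1.4* (0.987), *oser1* (0.949), *zgc:113324* (0.949) and *abcb11b* (0.934). The genes that varied most like *mpeg1.1* were *btbd10b* (0.953), *galca* (0.947), *ttll11* (0.940), *rnf217* (0.936) and *tmem11* (0.925).

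Other genes of macrophages were looked at as lists. Of 30 further macrophage and Kupffer cell genes, 19 were measured and 12 of these had a mean log2 signal under 3, so the list was dim. Over both batches limma called 0 of 19, and 1 of them, the scavenger receptor gene *cd36*, had an unadjusted p under 0.05 with a change of 0.34. In batch 2, 3 were called higher and 0 lower, against 2.55% and 3.12% of all clusters. The 3 were *mpeg1.2*, a second perforin-2 gene, *mertka*, a receptor for dying cells, and the galectin gene *lgals9l1*. In batch 1 *mertka* changed by −0.45 and *lgals9l1* by −1.51, without a call. The batch 2 control values of *lgals9l1*, 1.64 and 2.06, lie below the medians of their arrays (2.56 and 2.54). *mpeg1.2* gave 2.76 and 3.07 on the control arrays and 4.09 and 5.31 on the OF arrays of batch 2, a change of 1.79 (standard error 0.46, limma adjusted p = 0.349), while in batch 1 its groups overlapped and its change was 0.17. In batch 1, 1 was called higher (*acp5a*, an acid phosphatase of macrophages and osteoclasts, by 6.46 against dim controls), against 3.26% of all clusters. Called lower was 1 (*hmox1a*, a heme-degrading enzyme, by 3.24), against 3.47%. In batch 2 *hmox1a* changed by 3.00 the other way without a call. The difference between the batches passed the thresholds higher for 2 of the list (*hmox1a*, 6.24, and *mertka*, 2.28) and lower for 1 (*acp5a*, −6.71). Of all clusters, 6.42% and 5.88% did so. The *acp5a* signal was 1.84 and 1.83 on the control arrays, below the array medians of 2.12 and 2.13, and 9.35 and 7.25 on the OF arrays of batch 1, and 2.05 and 6.32 against 6.26 and 1.60 in batch 2. Ovary genes, with means of 2.84 and 3.87 on the control arrays and 3.93 and 1.83 on the OF arrays of batch 2, were high and low on the same arrays as *acp5a*, and their part in its change was not tested. The median change of the macrophage list was 0.11 over both batches, −0.01 in batch 1 and 0.25 in batch 2, beside −0.00, −0.03 and 0.03 for all clusters. The complement genes *c1qa*, *c1qb* and *c1qc*, which Kupffer cells express in mammals, changed by −0.15, 0.37 and 0.26 over both batches without a call.

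The mean log2 signal of the 19 genes was 3.17 and 2.47 on the control arrays and 2.81 and 3.05 on the OF arrays of batch 1, and 2.75 and 3.09 against 3.22 and 3.70 in batch 2. This mean includes *acp5a*, at 1.84 and 1.83 on the control arrays and 9.35 and 7.25 on the OF arrays of batch 1. That gene raises the mean on those OF arrays. *hmox1a*, at 5.54 and 7.42 on the control arrays and 3.11 and 3.38 on the OF arrays of batch 1, lowers it there. The mean without these genes was not taken. The 15 measured pan-leukocyte genes, of 17 listed, followed a like order, with 4.14 and 3.26 against 3.56 and 3.89 in batch 1 and 3.94 and 4.19 against 4.21 and 4.57 in batch 2. In both lists control replicate 1 of batch 1 was the highest array of its batch, and OF replicate 2 the highest of batch 2. The *grn1* signal correlated with these list means at 0.95 and 0.89 over the 8 arrays after the batch means were subtracted, given as a description. The order of arrays in the macrophage list and its correlations include *acp5a* and *hmox1a*, and were not taken without them. With the macrophage list the other members ranged from 0.38 (*spi1a*) to 0.94 (*spi1b*). The macrophage genes *mpeg1.1*, *marco* and *mfap4* were at 0.53, 0.61 and 0.43 with it. With the pan-leukocyte list the other members ranged from 0.34 (*mfap4*) to 0.90 (*spi1b*). Of the pan-leukocyte genes, *cybb*, the catalytic subunit of the phagocyte oxidase, was called higher over both batches (change 1.37, limma adjusted p = 0.955) and in batch 1, and *hck*, a myeloid tyrosine kinase, in batch 2, and 0 were lower. Of all clusters, 0.54%, 3.26% and 2.55% were called higher over both batches, in batch 1 and in batch 2. The list's median changes were 0.22, −0.02 and 0.35.

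**Figure D4:**
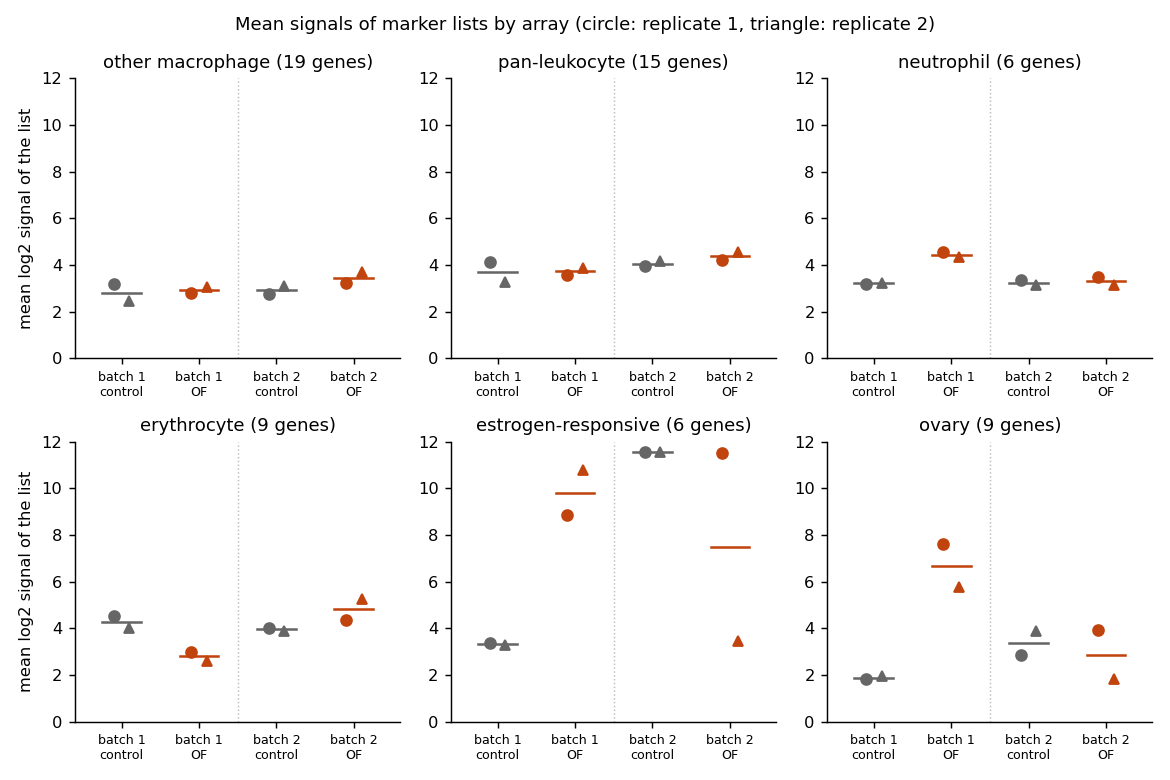
Mean log2 signal (vertical axis) of 6 marker lists on each array, by batch and treatment, with circles for replicate 1, triangles for replicate 2 and lines for the mean of the 2 arrays. The macrophage and pan-leukocyte lists move by under 1 between arrays of a batch, while the estrogen-responsive list is near 3 on batch 1 controls and batch 2 OF replicate 2 and above 8 on the other 5 arrays.

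All 6 genes of a list made around *csf1ra* were measured. They were the second receptor gene *csf1rb*, the ligands *csf1a*, *csf1b* and *il34*, and the receptor genes *csf2rb* and *csf3r* of other colony-stimulating factors. None of the 6 was called by limma in any comparison of OF with control, and 1 of them, *csf1b*, had a low unadjusted p (unadjusted p = 0.042, adjusted p = 0.955) over both batches, with a change of −0.43. The medians of the list were 0.06, −0.11 and 0.12. Among the 14 measured of 16 other myeloid transcription factor genes, limma called 0 over both batches, where 0 had an unadjusted p under 0.05, and 0 in batch 2. In batch 1, 0 were called higher and 2 lower, against 3.26% and 3.47% of all clusters. The 2 were *cebpd* (by 1.81, limma adjusted p = 0.178) and *gfi1b* (by 1.06). In batch 2 they changed by 0.48 and 0.98 without a call. Their differences between the batches, 2.28 and 2.04, passed the thresholds, and 1 gene of the list passed them lower (*mafbb*, −1.09). *irf8*, a factor that macrophages need in zebrafish, changed by −1.05 in batch 1 and 0.64 in batch 2 without a call. The 3 measured genes of class II antigen presentation, *cd74a*, *cd74b* and *ciita*, had no call in the comparisons of OF with control, and *cd74a*, the invariant chain that macrophages and B cells express, changed by −0.82 over both batches (limma unadjusted p = 0.0408, adjusted p = 0.955).

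Granulins meet a set of known partners, among them sortilin, which takes progranulin up, prosaposin, with which it travels to the lysosome, and the cathepsins that cut it. Of 20 such genes 19 were measured. Over both batches 1 was called higher, *ctsba*, a cathepsin B gene, with a change of 1.15 (limma unadjusted p = 0.0408, adjusted p = 0.955). Its log2 signal was 6.65 and 5.37 on the control arrays and 8.13 and 7.95 on the OF arrays of batch 2, and 8.45 and 7.61 against 8.38 and 8.20 in batch 1. The OF arrays were thus higher in batch 2 (change 2.03, standard error 0.48), while in batch 1 the groups overlapped. In batch 2 *tnfrsf1b*, a tumor necrosis factor receptor gene, was also called higher (1.22), and *sort1b*, a sortilin gene, was called lower (−1.20). Of all clusters, 2.55% were called higher and 3.12% lower in batch 2, and 0.54% and 0.474% over both batches. Over both batches *sort1b* changed by −0.83 (limma unadjusted p = 0.0246, adjusted p = 0.955) and *lrp1aa*, a gene of the LDL receptor family, by 0.32 (limma unadjusted p = 0.0404, adjusted p = 0.955), both under a factor of 2. The other sortilin gene, *sort1a*, and *psap*, the prosaposin gene, changed by 0.77 and 0.20 over both batches without a call. The list's median changes were −0.01 over both batches, −0.34 in batch 1 and 0.33 in batch 2.

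**Figure D5:**
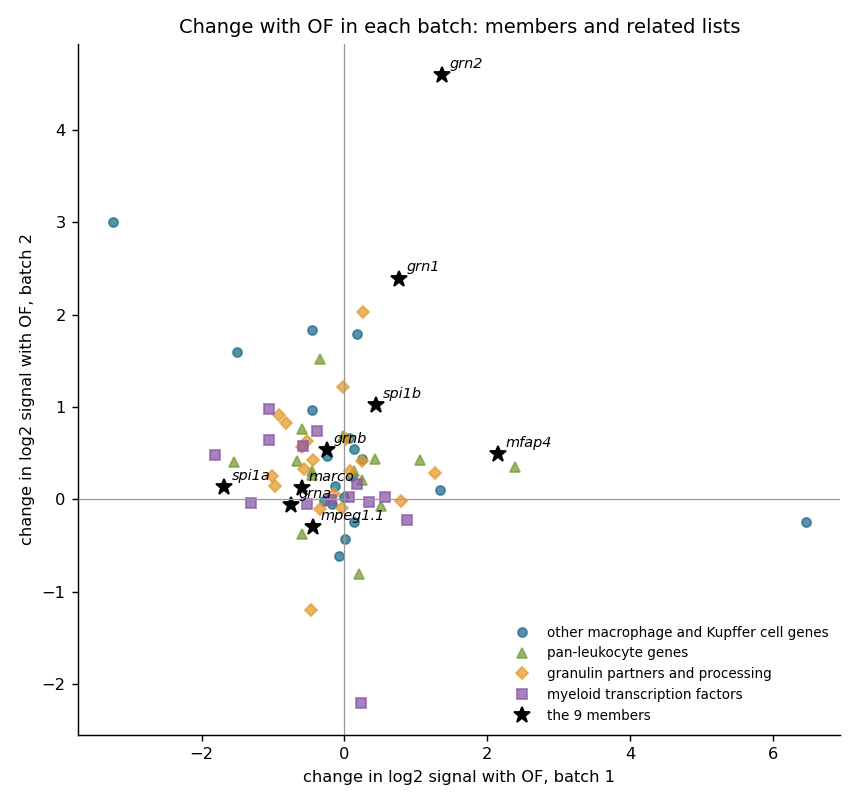
Change in log2 signal with OF in batch 1 (horizontal axis) against that in batch 2 (vertical axis) for the 9 members (stars) and for the genes of 4 related lists, 1 point a gene. *grn2* and *grn1* lie above every other member in batch 2, and *mfap4* lies farthest right of the members.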

How the data were processed

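Liver RNA was hybridised to ZebGene 1.1 ST arrays. Per the methods the authors corrected the probe signals for GC content and applied a signal space transformation in the Transcriptome Analysis Console. They deposited 1 table of log2 signals, which holds 75212 clusters. They also deposited worksheets with gene symbols, group averages, and their own fold changes and p-values, and these comparison columns were not used. The 84 control clusters were left out and the other 59300 clusters of the second batch worksheet were tested. A gene stands for its brightest cluster with 1 symbol.

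OF was compared with control in limma 3.58.1 (R 4.3.3, lmFit then eBayes) on the 8 arrays with a batch term, in each batch alone, and for a batch by OF interaction. The Benjamini-Hochberg adjustment covered all 59300 clusters. Python 3.11.15 with pandas 2.3.3, numpy 2.4.6 and matplotlib 3.10.9 made the tables and plots. The fits were tested before use on simulated data with known changes and with noise drawn independently for each cluster and array. Differences that many clusters share on an array, such as those of the estrogen-responsive genes, were not simulated. Of 67 changes of log2 size 1, 33 were recovered over both batches, 35 in batch 1, 31 in batch 2 and 23 in the difference. Of 67 of size 2 they recovered 64, 64, 64 and 59. Among 59100 unchanged clusters 530, 1249, 1256 and 1828 were called.

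The members and gene lists were chosen with earlier results of these data known. Named genes were all members, up to 4 genes of a list with the smallest p over both batches, and the 5 most like *grn1* and the 5 most like *mpeg1.1*. Other list genes called within a batch or named for their role were chosen after their values were seen. Of the members, 8 were matched by accession to a RefSeq gene table of the GRCz12tu assembly, used for names only. The labels give each array a fish number, with number 6 used for both a control and an OF array of batch 2. A fish received either OF or no treatment, so the arrays were taken as separate fish. Within a batch, p-values rest on 2 arrays per group, and over both batches on 4 OF and 4 control arrays. The number of arrays limits the precision. Alternatives were other normalizations, filters, variance models, a replicate block and leaving out each array.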

Additional observations from a re-analysis of the deposited data

Results flagged for a closer look

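The change of *mfap4* with OF was 2.15 in batch 1 and 0.49 in batch 2, a difference (batch 2 minus batch 1) of −1.66 (standard error 0.62, limma unadjusted p = 0.0358, adjusted p = 0.309). This difference passed the thresholds of the methods, as did 5.88% of all clusters in that direction, and it did not pass after adjustment. It stayed past the thresholds without batch 1 OF replicate 1 (−2.33) and without batch 2 OF replicate 2 (−1.88), and it was lost without each of the other 6 arrays, at −1.85 and −1.47 (batch 1 control replicates 1 and 2), −0.99 (batch 1 OF replicate 2), −1.66 and −1.67 (batch 2 control replicates 1 and 2) and −1.44 (batch 2 OF replicate 1).

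For *grnb* the change was −0.25 in batch 1 and 0.53 in batch 2. An unadjusted p under 0.05 for the difference between the batches was reached by 8479 of all 59300 clusters. The difference for *grnb* was 0.78 (standard error 0.31, limma unadjusted p = 0.0421, adjusted p = 0.326). It was under a factor of 2 and did not pass after adjustment. Without single arrays it was 0.54 (batch 1 control replicate 1) to 1.03 (batch 1 control replicate 2), and the latter was over a factor of 2 and passed the thresholds of the methods.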

How the results depend on the processing

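Quantile normalization, median centring, a variance trend and a fit of 4 group means left every called member called in its comparison of OF with control. In the fit of 4 group means, which uses the spread of all 8 arrays, the batch 2 standard errors were larger. They were 0.91 for *grn1* (limma unadjusted p = 0.0379) and 1.47 for *grn2* (limma unadjusted p = 0.0193), beside 0.39 and 0.72 in batch 2 alone. In batch 1 they were 0.44 for *mfap4* and 0.55 for *spi1a*, beside 0.52 and 0.48. The *grn1* change over both batches passed the thresholds with quantile normalization (1.66), with a variance trend (1.58) and without the batch term (1.58). With quantile normalization 1 member, *spi1a*, was called higher in the difference between the batches, as were 3814 of the 59300 clusters. Without the batch term *mfap4* lost its call over both batches (limma unadjusted p = 0.0783) and 134 clusters were lower. With only clusters of a mean log2 signal of at least 5, which leaves 4 members and fewer clusters, 96 clusters were higher and 136 lower over both batches, 729 and 1224 in batch 1, 795 and 1021 in batch 2, and 1781 and 1456 in the difference. The members then called were 1 higher over both batches (*grn1*), 0 higher and 0 lower in batch 1, 1 higher in batch 2 and 0 lower in the difference. With the mean of all clusters of each of 22653 genes the counts were 176 and 122, 1091 and 1021, 714 and 1100, and 1836 and 2034. With the estrogen-responsive mean as a covariate, added after seeing the data, 586 clusters and 3 members were higher over both batches.

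Replicate numbers did not pair the fish (deviations of same-numbered arrays correlated at 0.113 in batch 1 and −0.0727 in batch 2). With a replicate block, 3 members were higher in batch 2 (*spi1b* added), where 1678 of the 59300 clusters were higher and 1909 lower. In the difference 1 member was higher (*spi1a*) and 0 lower, beside 4086 and 3781 of all clusters.

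Leaving out single arrays gave 228 to 959 clusters higher and 197 to 653 lower over both batches (320 and 281 with all), 1110 to 4443 and 1879 to 3027 in batch 1, 1401 to 3500 and 2060 to 2390 in batch 2, and 2963 to 5033 and 2378 to 5484 in the difference. Members higher and lower were 0 to 4 and 0 to 1, 0 to 3 and 0 to 2, 2 to 3 and 0, and 0 to 4 and 0 to 1.

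Changes of members that turned direction when single arrays were left out are given as ranges. Over both batches they were −0.84 to 0.03 for *grna*, −0.82 to 0.10 for *mpeg1.1* and −0.56 to 0.03 for *marco*. In batch 1 they were −0.69 to 2.24 for *grn1*, −0.96 to 3.70 for *grn2*, −1.67 to 0.17 for *grna*, −1.59 to 0.72 for *mpeg1.1* and −0.53 to 1.42 for *spi1b*, each with 1 end without control replicate 1 and the other without control replicate 2. In batch 2 they were −0.96 to 0.84 for *grna*, −0.80 to 0.20 for *mpeg1.1*, −0.49 to 0.73 for *marco* and −0.46 to 0.71 for *spi1a*. In the difference between the batches they were −0.23 to 1.61 for *grna*, −1.02 to 1.29 for *mpeg1.1* and −0.40 to 1.55 for *spi1b*. The cause was not tested. Of 448 changes of members under the alternatives, 385 kept their direction and their side of the threshold, 20 lost a call, 22 gained one and 21 turned.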

Other observations

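Genes of other blood and liver cells on the same arrays were mostly without a call over both batches. Of 10 measured T and NK cell genes, 5 thrombocyte genes, 4 B cell genes, 12 endothelial genes, 7 biliary genes, 8 stellate cell and fibroblast genes and 11 exocrine pancreas genes, 0 were called higher and 0 lower over both batches by the thresholds of the methods in limma, and 1 of these 57 genes had an unadjusted p under 0.05. Neutrophil and hepatocyte genes were not in this tally. Of 6 neutrophil genes 1 was called higher over both batches, *lect2l* (2.00, limma unadjusted p = 0.02, adjusted p = 0.955). Of 16 hepatocyte genes 1 was called lower, *hnf4a* (−1.08, limma unadjusted p = 0.00368, adjusted p = 0.955). Among all clusters 0.54% were called higher and 0.474% lower over both batches. In batch 2, 2 T and NK cell genes and 4 of 9 erythrocyte genes were called higher and 0 lower, with median changes of 0.14 and 0.94. The batch 2 shares of all clusters were 2.55% higher and 3.12% lower. In batch 1, 5 of the 9 erythrocyte genes were called lower and 0 higher, with a median change of −1.68, beside 3.47% and 3.26% of all clusters.

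Exocrine pancreas genes, whose transcripts can enter a zebrafish liver sample because pancreatic tissue lies beside and within the liver, had a mean log2 signal of 2.45 on batch 1 OF replicate 1 and from 5.80 to 7.75 on the other 7 arrays.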
